A study of Mus musculus with 6 samples.

Results

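The mouse mitochondrial genome carries 37 genes, and all 37 were in the count table, chosen as the genes that the table places on the mitochondrial chromosome, out of 55487 genes in all. They comprised 13 mRNA genes, 2 rRNA genes and 22 tRNA genes. Counts came from RNA-seq of whole liver from 6 wild-type male mice kept on normal chow, with 1 library per mouse. A group of 3 mice received GalNAc-siNC, a control siRNA joined to N-acetylgalactosamine, a sugar that hepatocytes take up through the asialoglycoprotein receptor. The other 3 mice received GalNAc-siRnf10, the same kind of conjugate carrying an siRNA against Rnf10, an E3 ubiquitin ligase gene. Both were given subcutaneously, all livers were taken at 17 weeks of age, and all libraries carried the label of batch 1. The conjugates act in hepatocytes, whereas the libraries hold RNA of every liver cell type, so that fewer cells of a type and less RNA per cell cannot be told apart.

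Mitochondrial DNA is a small circle present in many copies per cell, and its genes are packed almost end to end. Both strands are transcribed into long precursors by the polymerase POLRMT with the factor TFAM, and the precursors are then released into single mRNAs, rRNAs and tRNAs, mostly where tRNAs are excised. The mRNAs encode core subunits of the respiratory chain complexes I, III and IV and of the ATP synthase (complex V), the rRNAs build the mitochondrial ribosome, and the tRNAs read its codons. In liver, respiration by these complexes draws on the oxidation of fatty acids and amino acids. The packing was plain in the annotation (GENCODE M21, GRCm38): 35 of the 36 spaces between neighbouring genes were 5 bases or fewer, 9 of them overlaps, and the widest was 32 bases.

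Some mitochondrial reading frames end before their stop codon is complete, and the poly(A) tail added after excision supplies the missing bases. The library kit, which selects poly(A) RNA, does not tell these ends from tails after a complete stop codon. Of the 13 mRNAs, mt-Co3, mt-Nd4 and mt-Cytb ended 1 base past a whole codon, on a single T, and their last 21 bases are shown with mt-Co1, which has a complete stop, for contrast (GENCODE M21 transcripts, GRCm38; capitals mark the encoded part of the stop codon).
mt-Co3: ccatttattgatgaggatctT
mt-Nd4: taattacaggcctgacaataT
mt-Cytb: aaatactaaaattatatccaT
mt-Co1: acctatgtaaaagtaaaaTAA

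Total counts were between 26854377 and 33058645 per library, and 3 counts corresponded to at most 1.12e-05% of a library, a limit that covers counting error only. The siRNA target checked the labels: Rnf10 had 3869, 4536 and 4040 normalized counts in the GalNAc-siNC group and 1738, 1820 and 1793 in the GalNAc-siRnf10 group. GalNAc-siNC mouse 1 stood apart from its group, with a chi-square per gene of 30.6 and 29.8 against the other 2 mice and 10.4 between these, compared with 4.71 to 5.40 within the GalNAc-siRnf10 group. Hepatocyte markers were abundant, at 5.46% to 5.93% of the library in the GalNAc-siNC group and 8.03% to 8.20% in the GalNAc-siRnf10 group (4 of 5 genes higher by edgeR's test, beside 6.71% of all tested genes higher and 7.28% lower). Stellate markers summed to 0.00826% to 0.00915% and to 0.01% to 0.0102% of the library (2 of 5 higher, Reln and Dcn), and endothelial markers to 0.00538% to 0.00555% and to 0.00536% to 0.0057% (1 of 4 higher, Clec4g). Fitted above 0 were 3 of 5 stellate and 3 of 4 endothelial markers. The others were Lrat (log2 fold change -0.27, edgeR adjusted p = 0.245), Des (-0.20, adjusted p = 0.742) and Stab2 (-0.26, adjusted p = 0.0544). Stab2 was lower at an unadjusted p under 0.05. By edgeR's test, 0 of 5 Kupffer cell, 0 of 4 cholangiocyte and 0 of 5 red blood cell markers were called, also 0 with DESeq2, and at an unadjusted p under 0.05 there was 1 lower Kupffer cell and 1 lower cholangiocyte marker. No liver marker was at 0 in every mouse, and muscle and brown fat markers had at most 3 counts. The part of these marker differences in the results below was not tested.

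Summed over the mitochondrial genes, the share of the library was 5.64%, 4.44% and 5.16% in the GalNAc-siNC mice and 5.53%, 5.39% and 5.38% in the GalNAc-siRnf10 mice. The groups overlapped, since GalNAc-siNC mouse 1 had the highest share of the 6 mice and the other controls the lowest. Means were 5.08% ± 0.604 (SD, n = 3) and 5.43% ± 0.0826, a difference of 0.354 percentage points (exact two-sided permutation test, p = 0.5). The difference was 0.635 percentage points without GalNAc-siNC mouse 1 and 0.0343 without GalNAc-siNC mouse 2. With 3 mice per group the smallest p this test can give is 0.1. Within the mitochondrial counts, the 13 mRNAs made up 97.2% to 98.4% in every mouse, and mt-Co1 alone between 41.2% and 42.6%. Of these mRNAs, 5 had few counts and nearly all of their sequence in nuclear copies (below). How reads that map to several places were treated is not given in the sources used here. The sums and shares therefore cover only the reads that were counted.

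Counts per length spanned 3 orders of magnitude. Expressed as CPM (counts scaled to the total of the library) per kilobase of gene, the GalNAc-siNC means ran from 13727 for mt-Co1 through 7719 for mt-Cytb, 5772 for mt-Nd2, 4901 for mt-Nd1, 2951 for mt-Nd4, 2178 for mt-Nd5 and 1715 for mt-Nd6. In this order the ranges of mt-Nd4 and mt-Nd5 over the GalNAc-siNC mice overlapped, although mt-Nd4 was above mt-Nd5 within each mouse, and the ranges of the other neighbours did not overlap. The tRNA gene mt-Tp followed at 1134, and the rRNA genes mt-Rnr1 and mt-Rnr2 stood at 445 and 236. The last 6 mRNAs were mt-Co2 at 131, mt-Atp6 at 111, mt-Co3 at 105, mt-Nd4l at 56.1, mt-Nd3 at 50.6 and mt-Atp8 at 13.6. Among these, only mt-Atp8 lay clear of its neighbour, and each of the others overlapped the next. All of them but mt-Atp8 have nearly all of their sequence in nuclear copies (below), so their levels are uncertain. The order is one of counts, and amounts of RNA cannot be read from it for these genes.

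**Figure D1:**
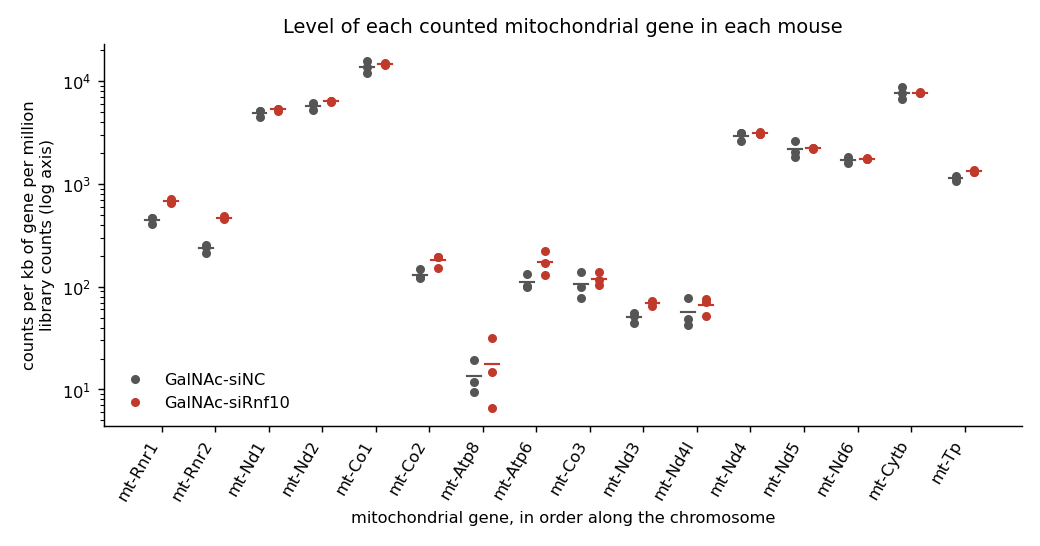
Level of the 16 mitochondrial genes with counts, in order along the chromosome, as CPM per kilobase of gene on a log axis; points are mice (3 per group) and dashes are group means. The mRNAs from mt-Co2 to mt-Nd4l range up to 225, mt-Nd6 starts at 1593, and both rRNA genes are higher in every GalNAc-siRnf10 mouse. Levels of the mRNAs with nearly all of their sequence in nuclear copies are uncertain.

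Changes between the groups were tested with edgeR's quasi-likelihood test and Benjamini-Hochberg adjustment over 14046 genes, of which 16 were mitochondrial: all 13 mRNAs, both rRNAs and mt-Tp. Values below are normalized counts, that is, counts scaled to a common library size by TMM factors. Of the 16 genes, 6 were called higher in the GalNAc-siRnf10 group at an adjusted p under 0.05 and 0 lower, namely mt-Rnr2, mt-Rnr1, mt-Nd3, mt-Co2, mt-Tp and mt-Nd2. Without GalNAc-siNC mouse 1 there were 10 calls, and without GalNAc-siRnf10 mouse 2 there were 3. Over all tested genes, 14.0% were called, 6.71% higher and 7.28% lower. Without the same mice, in that order, 2864 of 14343 and 1128 of 14386 tested genes were called. The groups did not overlap for 9 of the 16 genes, each higher in the GalNAc-siRnf10 group, beside 16.5% of all tested genes. The median log2 fold change was 0.25 over the 16 genes, 0.19 over the 13 mRNAs and 0.00 (0.00221) over all tested genes.

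Of the called genes, the rRNAs changed most. The small subunit rRNA gene mt-Rnr1 (MT:70-1024, plus strand) had 12655, 11493 and 13074 normalized counts in the GalNAc-siNC mice and 19476, 18728 and 20161 in the GalNAc-siRnf10 mice. Every GalNAc-siRnf10 mouse was above every control. The ratio of the means was 1.57, a log2 fold change of 0.65 (SE 0.0593, edgeR adjusted p = 6.87e-07). The large subunit rRNA gene mt-Rnr2 (MT:1094-2675, plus strand), which is the next gene but for mt-Tv, had 11640, 9878 and 11259 normalized counts in the GalNAc-siNC mice and 22179, 21612 and 22978 in the GalNAc-siRnf10 mice. These groups did not overlap either, and the ratio was 2.04 (log2 fold change 1.03, SE 0.0631, edgeR adjusted p = 5.77e-09). Both genes were called under each of 18 other settings of the analysis, leaving out each mouse included, with adjusted p of at most 0.01 for mt-Rnr1 and 0.000141 for mt-Rnr2.

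The rRNAs also rose relative to the other mitochondrial RNAs. They made up 1.50%, 1.64% and 1.60% of the mitochondrial counts in the GalNAc-siNC group and 2.48%, 2.48% and 2.68% in the GalNAc-siRnf10 group, without overlap (exact permutation p = 0.1, the smallest that 3 against 3 allows). The counts of mt-Rnr2 per count of mt-Nd1, the mRNA gene that follows it on the same strand after mt-Tl1, were 0.0828, 0.0795 and 0.0770 in the GalNAc-siNC mice and 0.142, 0.145 and 0.150 in the GalNAc-siRnf10 mice. The pair of rRNAs did not move by the same factor. The ratio of mt-Rnr2 to mt-Rnr1 counts was 0.920, 0.860 and 0.861 in the GalNAc-siNC mice and 1.14, 1.15 and 1.14 in the GalNAc-siRnf10 mice, so that mt-Rnr2 was the less counted rRNA in every control and the more counted in every treated mouse (exact permutation p = 0.1).

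Ribosomal RNA is mostly lost in libraries that select poly(A) RNA, and what is left depends on short A tails, on internal runs of A and on how strict the selection was. The last 80 bases of both genes are shown because a tail would follow them (GENCODE M21, GRCm38). The encoded bases do not tell whether a tail was present. Capitals mark the longest run of A in the stretch, the first of equals.
mt-Rnr1: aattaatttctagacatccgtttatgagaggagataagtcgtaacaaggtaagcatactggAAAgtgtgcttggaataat
mt-Rnr2: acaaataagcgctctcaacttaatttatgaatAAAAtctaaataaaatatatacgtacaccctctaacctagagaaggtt
Neither stretch held a run of over 4 A. In the whole genes the longest run was 5 A in mt-Rnr1 and 7 A in mt-Rnr2, and among the mRNAs it was 3 to 8 A, longest in mt-Nd2.

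A nuclear rRNA gene gave a measure of other rRNA in the same libraries; it and the other nuclear RNAs of this paragraph were chosen after their values were seen, apart from the small RNAs. CT010467.1, annotated as rRNA at chr17:39846353-39848201, had 9190, 22402 and 24208 normalized counts in the GalNAc-siNC group and 30367, 33878 and 26648 in the GalNAc-siRnf10 group. It was higher in each GalNAc-siRnf10 mouse than in any control, with a log2 fold change of 0.70 (SE 0.422, edgeR adjusted p = 0.388). The summed mt-rRNA counts per count of this gene were 2.64, 0.954 and 1.00 in the GalNAc-siNC mice and 1.37, 1.19 and 1.62 in the GalNAc-siRnf10 mice, and here the groups overlapped through GalNAc-siNC mouse 1, the library that stood apart (exact permutation p = 1.0). Without that mouse, an alternative added after seeing the data, the mean ratios were 0.98 and 1.39, or 1.42 times as high in the GalNAc-siRnf10 group, and the groups did not overlap (exact permutation p = 0.2, with 2 control mice). The log2 fold change of CT010467.1 itself was then 0.38 (edgeR adjusted p = 0.126). The part of this nuclear rRNA, which did not pass the test, and that of the selection of poly(A) RNA in the mt-rRNA result were not tested. Of the long nuclear RNAs, Malat1 had a log2 fold change of 0.27 (edgeR adjusted p = 0.0209) and Neat1 of 0.06 (adjusted p = 0.607). Small RNAs made without a poly(A) tail (Rn7sk, Rmrp, Rpph1, Terc, Rny1 and Rny3) reached 18 counts at most, and 4 of the 6 (Rmrp, Rpph1, Terc and Rny3) were at 0.

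**Figure D2:**
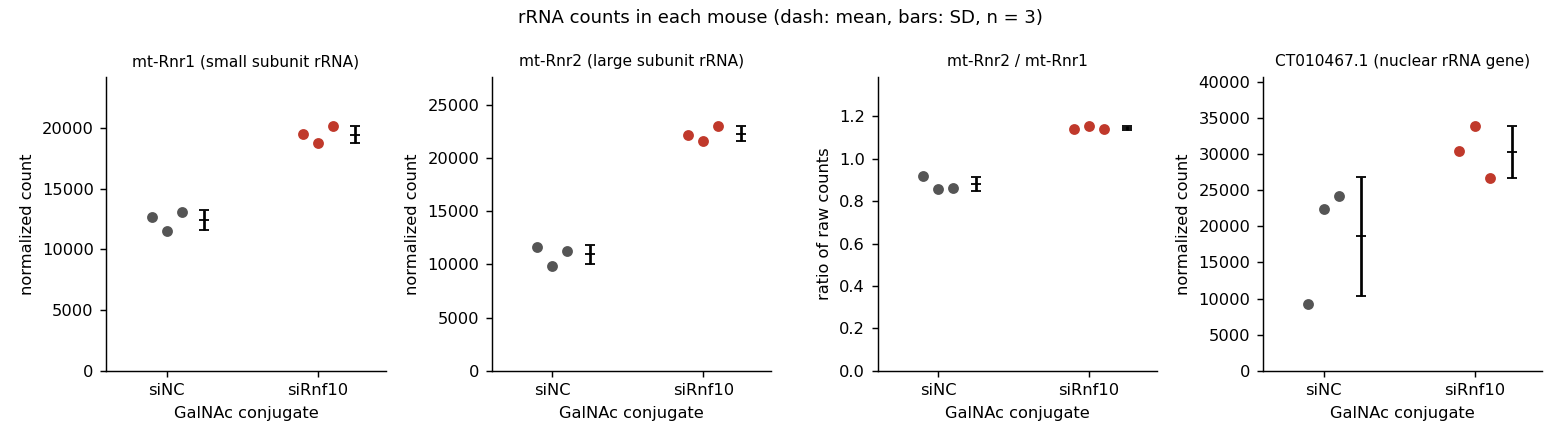
Normalized counts of mt-Rnr1, mt-Rnr2 and the nuclear rRNA gene CT010467.1, and the ratio of mt-Rnr2 to mt-Rnr1 raw counts, in each mouse; the axes start at 0, dashes are means and bars are SD (n = 3). Each quantity is higher in all 3 GalNAc-siRnf10 mice than in any control, and CT010467.1 has the widest spread among the controls.

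Complex I, the NADH dehydrogenase that feeds electrons into the chain, takes 7 of its subunits from mitochondrial DNA, and 2 of these mRNAs were called. The gene mt-Nd2 (MT:3914-4951), whose protein is part of the proton-pumping membrane arm, had 178573, 157676 and 188751 normalized counts in the GalNAc-siNC mice and 203141, 198075 and 197624 in the GalNAc-siRnf10 mice. The groups did not overlap, but the difference was small (log2 fold change 0.19, SE 0.0583, edgeR adjusted p = 0.0383). It passed the threshold under 8 of 18 other settings and lost it when GalNAc-siNC mouse 2 or any of the GalNAc-siRnf10 mice was left out (adjusted p up to 0.19). The gene mt-Nd3 (MT:9459-9806) had 442, 528 and 573 normalized counts in the GalNAc-siNC mice and 770, 754 and 674 in the GalNAc-siRnf10 mice, also without overlap. Its log2 fold change was 0.51 (SE 0.105, edgeR adjusted p = 0.00292), and it was called under 17 of 18 other settings.

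The other complex I mRNAs did not pass the test. The gene mt-Nd1, next to the rRNAs, ran from 124278 to 146199 normalized counts in the GalNAc-siNC group and from 149467 to 156348 in the GalNAc-siRnf10 group (log2 fold change 0.16, SE 0.0571, edgeR adjusted p = 0.0738). Its groups did not overlap, nor did those of mt-Nd4 (0.12, SE 0.0633, adjusted p = 0.241), while mt-Nd5 (0.08, SE 0.122), mt-Nd6 (0.09, SE 0.0551) and mt-Nd4l (0.29, SE 0.268) overlapped. Without GalNAc-siNC mouse 1, mt-Nd1 (0.18, edgeR adjusted p = 0.0126), mt-Nd5 (0.22, adjusted p = 8.98e-05) and mt-Nd4l (0.58, adjusted p = 0.00125) passed the test, and without GalNAc-siNC mouse 3 so did mt-Nd1 (0.21, adjusted p = 0.0404). Without GalNAc-siNC mouse 2 the same genes had log2 fold changes of 0.09, -0.03 (-0.0325) and 0.12. The gene mt-Nd6 is the 1 mRNA gene on the minus strand and abuts mt-Nd5 with an overlap of 14 bases. The ratio of mt-Nd6 to mt-Nd5 counts, a gene of one strand and its neighbour on the other, was 0.196, 0.247 and 0.239 in the GalNAc-siNC mice and 0.226, 0.226 and 0.227 in the GalNAc-siRnf10 mice. No difference in this ratio beyond the spread was seen (exact permutation p = 1.0). The strand setting of the counting is not given in the sources used here. Whether the counts of each gene came from its own strand was not tested.

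Cytochrome b, encoded by mt-Cytb (MT:14145-15288), is the only complex III subunit made in mitochondria. It had 289076, 224365 and 259758 normalized counts in the GalNAc-siNC mice and 273618, 262755 and 263295 in the GalNAc-siRnf10 mice (log2 fold change 0.05, SE 0.0772, edgeR adjusted p = 0.745). Per library, the groups overlapped, and the log2 fold change was 0.14 (adjusted p = 0.0236) without GalNAc-siNC mouse 1 and -0.04 (adjusted p = 0.628) without GalNAc-siNC mouse 2. As a share of the mitochondrial counts, however, mt-Cytb was 17.8%, 17.2% and 17.1% in the GalNAc-siNC mice and 16.3%, 16.1% and 16.3% in the GalNAc-siRnf10 mice, lower in each treated mouse (exact permutation p = 0.1). That share is bound to those of the other mitochondrial genes.

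Of the cytochrome c oxidase (complex IV) mRNAs, mt-Co1 (MT:5328-6872), which encodes the catalytic heme subunit and is the most counted mitochondrial RNA, had 692261, 537319 and 627515 normalized counts in the GalNAc-siNC mice and 703129, 686362 and 668401 in the GalNAc-siRnf10 mice. The groups overlapped through GalNAc-siNC mouse 1 (log2 fold change 0.15, SE 0.0794, edgeR adjusted p = 0.274), and the log2 fold change was 0.23 (adjusted p = 0.00513) without that mouse and 0.05 (adjusted p = 0.503) without GalNAc-siNC mouse 2. The gene mt-Co2 (MT:7013-7696), for the subunit that binds cytochrome c, had 2367, 2518 and 2975 normalized counts in the GalNAc-siNC mice and 4061, 4012 and 3088 in the GalNAc-siRnf10 mice. It was called (log2 fold change 0.51, SE 0.122, edgeR adjusted p = 0.0264), although GalNAc-siRnf10 mouse 3 was close to the highest control. That call was lost with the replicate number as a block (adjusted p = 0.102) and when any of 4 mice was left out (GalNAc-siNC mouse 1 or 2, GalNAc-siRnf10 mouse 1 or 2; adjusted p up to 0.196). The gene mt-Co3 ran from 1738 to 3247 normalized counts in the controls and from 2462 to 3261 in the treated mice (log2 fold change 0.23, SE 0.268, edgeR adjusted p = 0.67). It was 0.03 (adjusted p = 0.948) without GalNAc-siNC mouse 1, and was called without GalNAc-siNC mouse 3 (0.49, adjusted p = 0.0485).

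Neither ATP synthase (complex V) mRNA passed the test. The gene mt-Atp6 (MT:7927-8607), for the subunit that conducts protons, had 1939, 2031 and 2658 normalized counts in the GalNAc-siNC mice and 2714, 4623 and 3470 in the GalNAc-siRnf10 mice. The groups did not overlap, yet the log2 fold change of 0.71 (SE 0.246) did not pass the test (edgeR adjusted p = 0.155). Without GalNAc-siNC mouse 3 or GalNAc-siRnf10 mouse 1 it did (adjusted p = 0.033 and 0.0313). The gene mt-Atp8 (MT:7766-7969), which shares 43 bases with mt-Atp6, had 54.8, 71.2 and 118 normalized counts in the controls and 40.7, 194 and 90.5 in the treated mice, the lowest and the highest value both being in the GalNAc-siRnf10 group. Its log2 fold change was 0.44 (SE 0.639, adjusted p = 0.73) and became -0.29 (-0.295) without GalNAc-siRnf10 mouse 2.

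**Figure D3:**
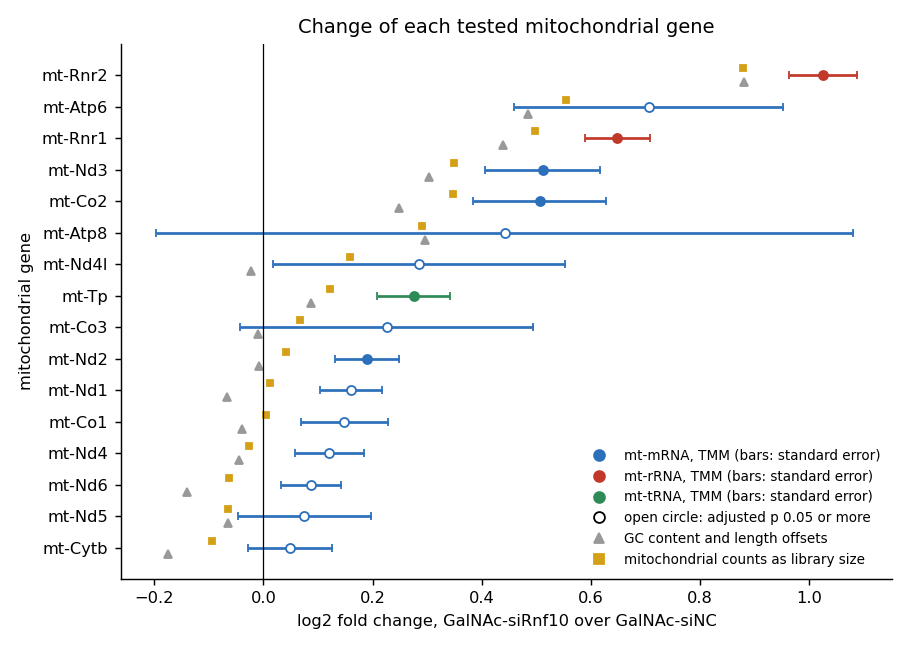
Log2 fold change of the 16 tested mitochondrial genes, with SE bars, by TMM normalization (circles, filled where adjusted p was under 0.05), with offsets for GC content and length (triangles) and with the summed mitochondrial counts as library size (squares). Both rRNAs stay above 0.4 on all scales, while mRNAs near the bottom cross 0.

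The tRNAs were almost unseen. Of the 22 tRNA genes, 14 on the plus and 8 on the minus strand and 59 to 75 bases long, 21 had 0 counts in every mouse. These genes are shorter than a read of 150 bases, and mature tRNAs do not carry a poly(A) tail. The exception was mt-Tp (MT:15356-15422, minus strand), the tRNA gene for proline, which is the last gene before the non-coding control region. It is shown whole because a read of full length is longer than the gene (GENCODE M21, GRCm38).
mt-Tp: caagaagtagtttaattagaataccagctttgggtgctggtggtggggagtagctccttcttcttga
It had 2183, 2117 and 2359 normalized counts in the GalNAc-siNC mice and 2661, 2650 and 2752 in the GalNAc-siRnf10 mice, and the groups did not overlap. The log2 fold change was 0.28 (SE 0.067, edgeR adjusted p = 0.0101), called under 12 of 18 other settings and lost when any GalNAc-siRnf10 mouse was left out (adjusted p up to 0.083). Whether the reads counted there came from the tRNA or from longer RNA across it was not tested.

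Several mitochondrial mRNAs share nearly all of their sequence with copies of mitochondrial DNA in the nuclear genome. Among annotated nuclear transcripts, 11 were copies of a mitochondrial gene with at least 95% identity over at least 80% of the copy: 7 on chromosome 1, 3 on chromosome 2 and 1 on chromosome 13. The 7 on chromosome 1 lay within chr1:24611535-24616197, a stretch of 4663 bases. Placed by their alignments, these copies spanned mitochondrial bases 6381 to 11042, from within mt-Co1 to within mt-Nd4. The bases between the copies were not compared. The spaces between neighbouring copies equalled those between the matching mitochondrial stretches in 5 of 6 cases (74 against 73 bases in the other). Over the length of the copy, 5 of the 7 were identical to their mitochondrial gene. Of these, Gm28439 has 876 bases, against 1378 in mt-Nd4. The gene mt-Atp8 has no annotated copy, although its place falls in the 233 bases between the copies of mt-Co2 and mt-Atp6. The starts of mt-Nd3 and mt-Nd4l are shown with their copies Gm28438 and Gm10222 because a read from either place could be assigned to both (first 60 bases; GENCODE M21, GRCm38; capitals mark a difference).
mt-Nd3: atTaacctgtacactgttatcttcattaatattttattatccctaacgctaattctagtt
Gm28438: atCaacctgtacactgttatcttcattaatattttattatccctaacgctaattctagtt
mt-Nd4l: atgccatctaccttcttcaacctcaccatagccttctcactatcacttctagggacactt
Gm10222: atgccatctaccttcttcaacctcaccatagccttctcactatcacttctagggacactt
The first pair differed by T3C, counted from the first base of mt-Nd3, and this was its only difference over 345 bases, whereas the second pair was identical over 294 bases.

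The mRNAs with nearly all of their sequence in such copies had few counts, unlike other mRNAs with a copy (mt-Co1, mt-Nd2, mt-Nd4 and mt-Nd5). For mt-Co2, mt-Atp6, mt-Co3, mt-Nd3 and mt-Nd4l, 97.0% to 99.8% of all windows of 150 bases, the read length, were found without mismatch in a nuclear transcript, and these 5 genes had 354 to 4835 raw counts per mouse. For mt-Nd1, mt-Nd2, mt-Nd5, mt-Nd6 and mt-Cytb no such window was found, for mt-Co1 23.6% and for mt-Nd4 59.1%, and these 7 genes had 23501 to 795244 counts. As CPM per kilobase the ranges were 41.9 to 225 and 1593 to 15570, which do not overlap. Every mRNA with nearly all of its windows in a nuclear copy was thus counted less per length than any of the 7. Of the remaining genes, mt-Atp8 had 36 to 203 counts with no window in an annotated nuclear transcript. How the authors treated reads that map to several places was not given in the sources used here, so the levels of the 5 genes, and their changes, are uncertain.

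The copies themselves held counts. Gm10925, identical to mt-Atp6 over its 678 bases, had 1961 to 3516 counts, between 0.597 and 1.08 times those of mt-Atp6 in the same mouse. In contrast, Gm29216, a copy of part of mt-Co1, had 741 to 1085, or at most 0.00158 times those of mt-Co1. Of the copies tested, Gm28661 (a copy of mt-Co2; log2 fold change 0.37, edgeR adjusted p = 0.0208) and Gm28438 (of mt-Nd3; 0.65, adjusted p = 0.0137) were higher in the GalNAc-siRnf10 group, and Gm28439 (of mt-Nd4; fell by 0.40 on the log2 scale, adjusted p = 0.0494) was lower. Gm10925 (0.44, adjusted p = 0.224), Gm28437 (of mt-Co3; 0.13, adjusted p = 0.324), Gm10222 (of mt-Nd4l; 0.80, adjusted p = 0.451), Gm29216 (0.10, adjusted p = 0.66) and Gm13340 (of mt-Co1, on chromosome 2; 0.09, adjusted p = 0.783) did not pass. With the counts of each copy added to its gene, mt-Co2 had a log2 fold change of 0.47 (SE 0.0979, edgeR adjusted p = 0.00787), mt-Nd3 of 0.53 (0.535, adjusted p = 0.00133) and mt-Atp6 of 0.58 (adjusted p = 0.12), so no call among these changed. Such a sum cannot bring back any reads that were left out of the counts, so the changes of these genes remain uncertain.

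**Figure D4:**
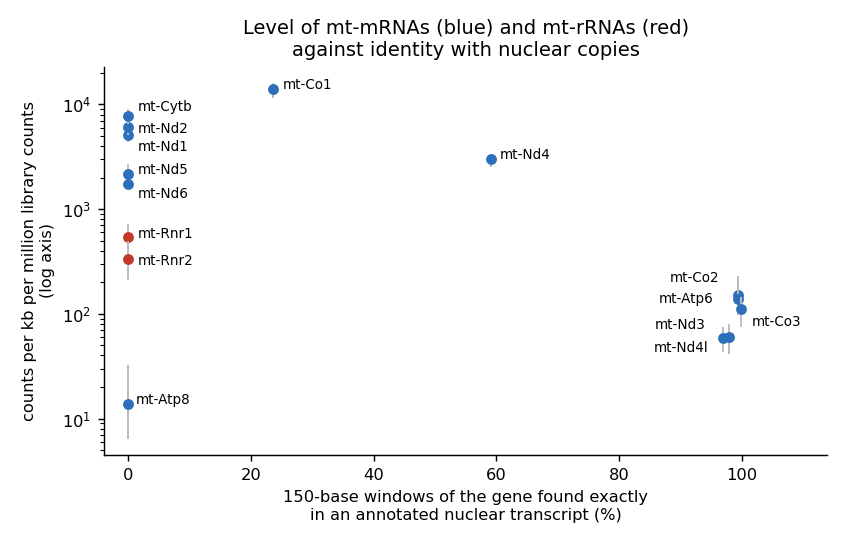
Level of the mt-mRNAs (blue) and mt-rRNAs (red), as CPM per kilobase of gene on a log axis, against the percent of 150-base windows found without mismatch in an annotated nuclear transcript; points are geometric means and grey lines run from the lowest to the highest of 6 mice. The 5 mRNAs with over 95% of windows shared range up to 225, and the 7 others apart from mt-Atp8 start at 1593.

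Mitochondrial genes have a low GC content, so their changes were also set against GC content. GC content was 31.9% to 44.8% over the 16 tested genes, and 35.8% and 35.4% in mt-Rnr1 and mt-Rnr2. With all tested genes divided into 10 groups of nearly equal size by GC content, the median log2 fold change went from 0.06 in the lowest group (31.1% to 42.0% GC, with 15 of the 16 mitochondrial genes) to -0.08 in the highest, and the 5th and 95th percentiles of the lowest group were -0.54 and 0.66. With offsets for GC content and length the rRNAs stayed higher, at log2 fold changes of 0.44 for mt-Rnr1 (edgeR adjusted p = 7.47e-08) and 0.88 for mt-Rnr2 (adjusted p = 1.06e-12). The gene mt-Nd3 kept its call (0.30, adjusted p = 0.0163), and mt-Co2 (0.25, adjusted p = 0.153), mt-Tp (0.09, adjusted p = 0.445) and mt-Nd2 (-0.01, adjusted p = 0.906) did not. Of the 13 mRNAs, 13 were fitted above 0 without these offsets and 4 with them while their median went from 0.19 to -0.02 (-0.0235), and mt-Nd3 was the 1 mRNA called with the offsets. In the lowest GC group of all tested genes the median went from 0.06 to 0.01 (0.0136). The offsets were fitted for GC content and length together, and the part of each in these shifts was not tested. Across the 16 genes, GC content and log2 fold change had Pearson's r of -0.28 (-0.283) and Spearman's rho of -0.24 (-0.244), a description over genes that share libraries and transcripts.

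The summed mitochondrial counts as library size gave the changes within the mitochondrial RNA, a scale on which the median of all genes moved to -0.15 (-0.151). On it mt-Rnr1 (0.50, edgeR adjusted p = 0.01) and mt-Rnr2 (0.88, adjusted p = 0.000141) were still called, and none of the 13 mRNAs was, with 9 fitted above 0 and a median of 0.04. The genes mt-Nd4, mt-Nd5, mt-Nd6 and mt-Cytb were fitted below 0 there. That library size covers only the reads that were counted, few of them from the 5 mRNAs with nearly all windows in a nuclear copy.

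The machinery that copies, transcribes and matures mitochondrial RNA is encoded in the nucleus. Of 47 such genes, 46 were tested, 3 were higher in the GalNAc-siRnf10 group and 0 lower (all genes, 6.71% and 7.28%), with a median log2 fold change of 0.11 (0.105). Calls were 9 without GalNAc-siNC mouse 1 and 1 without any 1 GalNAc-siRnf10 mouse. The 3 were Hsd17b10, a subunit of the RNase P that cuts tRNA 5′ ends (0.49, SE 0.0756, edgeR adjusted p = 0.000269), Ssbp1, the single-strand DNA binding protein of the replication fork (0.32, adjusted p = 0.0357), and Mrm3, which methylates the large subunit rRNA (0.43, adjusted p = 0.0437). The polymerase gene Polrmt ran from 656 to 765 normalized counts in the GalNAc-siNC group and from 610 to 688 in the GalNAc-siRnf10 group (log2 fold change -0.10, SE 0.0937, adjusted p = 0.56). Tfam, which packages the DNA and starts transcription, had a log2 fold change of 0.04 (SE 0.0744, adjusted p = 0.799), and Polg, the DNA polymerase, of -0.01 (SE 0.0881, adjusted p = 0.948). Lrpprc, which stabilizes mitochondrial mRNAs (0.12, adjusted p = 0.234), and Ppargc1a, a coactivator of mitochondrial gene programmes (0.13, adjusted p = 0.615), did not pass either. Of 19 mitochondrial aminoacyl-tRNA synthetase genes, which charge the mitochondrial tRNAs, all were tested and 0 were called by edgeR, 0 at an unadjusted p under 0.05 and 0 by DESeq2, with a median of 0.02.

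Mitochondrially encoded subunits work in complexes with nuclear ones, which are set beside them here. Of 80 nuclear subunit genes of complexes I, III, IV and V, 73 were tested, 25 were higher and 0 lower in the GalNAc-siRnf10 group (all genes, 6.71% and 7.28%), with a median log2 fold change of 0.47 beside 0.19 for the 13 mitochondrial mRNAs. All 73 were fitted above 0, and the median was 0.34 with offsets for GC content and length, where that of the 13 mRNAs was -0.02. By complex, calls were 15 of 37 nuclear and 2 of 7 mitochondrial genes in complex I, 3 of 9 and 0 of 1 in complex III, 1 of 11 and 1 of 3 in complex IV, and 6 of 16 and 0 of 2 in complex V. The 2 sets of genes were not tested against each other. Among the mitochondrial mRNAs, the 7 with at least 23501 counts had log2 fold changes from 0.05 (mt-Cytb) to 0.19 (mt-Nd2). The 5 with nearly all windows in a nuclear copy, whose changes are uncertain, and mt-Atp8 ran from 0.23 (mt-Co3) to 0.71 (mt-Atp6). In complexes IV and V, mt-Co1 was the only mitochondrial gene outside this latter set. The number of nuclear calls changed with the mice kept. It was 65 without GalNAc-siNC mouse 1 and 60 without GalNAc-siNC mouse 3, but 13 to 14 without any 1 GalNAc-siRnf10 mouse. Over all tested genes there were 1965 calls in the main fit and 2864 and 1900 without these controls. Without any 1 GalNAc-siRnf10 mouse there were 1053 to 1128 over all tested genes. The median of the nuclear genes was 0.29 without GalNAc-siNC mouse 1, beside 0.22 for the mitochondrial mRNAs, and 0.60 (0.605) without GalNAc-siNC mouse 3, beside 0.21. The 10 with the smallest adjusted p were the ATP synthase subunits Atp5f1 (0.32, edgeR adjusted p = 0.000682), Atp5c1 (0.32, adjusted p = 0.0012) and Atp5b (0.26, adjusted p = 0.00389) and the complex I subunits Ndufb6 (0.53, adjusted p = 0.00145), Ndufa5 (0.62, adjusted p = 0.00235), Ndufa3 (0.55, adjusted p = 0.00291), Ndufb9 (0.48, adjusted p = 0.00418), Ndufs1 (0.29, adjusted p = 0.00426), Ndufb5 (0.40, adjusted p = 0.00446) and Ndufa9 (0.35, adjusted p = 0.00467).

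**Figure D5:**
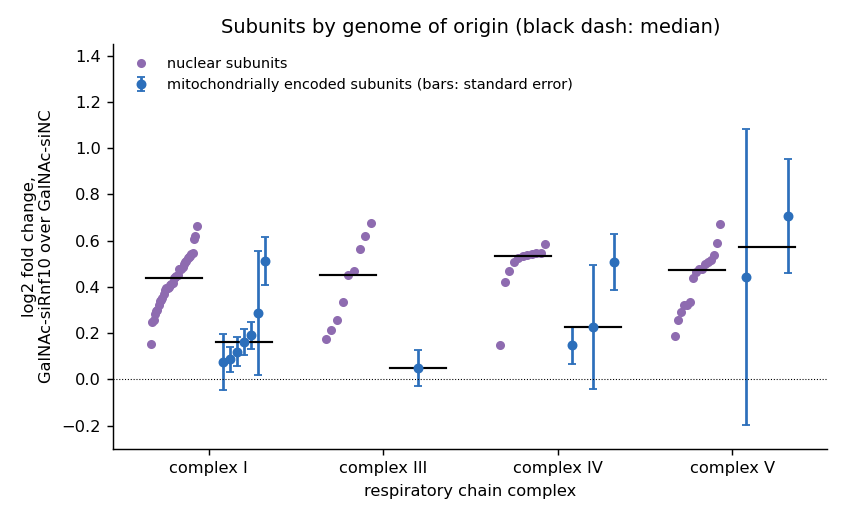
Log2 fold change (GalNAc-siRnf10 over GalNAc-siNC) of respiratory chain subunit genes by complex, with nuclear genes in purple and mitochondrially encoded genes in blue (bars: SE); black dashes are medians. The median of nuclear genes is above that of mitochondrially encoded genes in complexes I, III and IV (0.44 against 0.16 in complex I), but not in complex V, where 2 mitochondrial genes with wide errors are compared. Of the mitochondrially encoded genes of complexes IV and V, all but mt-Co1 had few counts, and most of these have nearly all of their sequence in nuclear copies.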

How the data were processed

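Liver RNA of 3 GalNAc-siNC mice and 3 GalNAc-siRnf10 mice, which the labels number 1 to 3 in each group, was sequenced with 1 library per mouse. Per the labels and the methods, the authors made stranded poly(A)-selected libraries (Illumina Stranded mRNA Prep), sequenced paired reads of 150 bases on a DNBSEQ platform, aligned them with HISAT2 to the GRCm38 build, and deposited gene counts that were not normalized, beside the length of each gene model. The counting tool, annotation release, strand setting and handling of reads that map to several places are not given in the sources used here. The conjugate is named GalNAc-siRnf10-2 in the paper. Total counts were between 26854377 and 33058645 per library, and the biological coefficient of variation was 9.28%.

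From these counts, 14046 genes that passed filterByExpr were tested in R 4.3.3 with edgeR 4.0.16 (TMM, robust quasi-likelihood F-test, group as the only covariate) with Benjamini-Hochberg adjustment over all of them and a threshold of 0.05. The SE of a log2 fold change was taken as its size divided by the square root of F. Shares and ratios were compared by an exact two-sided permutation test over mice. Alternatives were DESeq2 1.42.0, other normalizations and filters, the replicate number as a block, offsets from splines of GC content and length with 5 degrees of freedom each, nuclear copies added, and leaving out each mouse. The edgeR step was tested on simulated data with known changes.

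Gene names, coordinates and sequences came from GENCODE M21 (GRCm38), in which all 37 mitochondrial identifiers were found; a genome sequence was not used here. Nuclear copies were found with blastn (BLAST 2.17.0) among annotated transcripts. All mitochondrial genes are accounted for, and each mRNA, each rRNA and each tRNA that was tested is named; of the nuclear lists, Polrmt, Tfam, Lrpprc, Polg, Ppargc1a and called genes are named, up to the 10 with the smallest adjusted p. Copies are named from 100 counts in a library. The members and lists were chosen with earlier results of these data known. Same-numbered mice of the groups are different animals. Nothing in the labels ties the 6 mice to litters or cages.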

Additional observations from a re-analysis of the deposited data

How the results depend on the processing

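The difference in library share (0.354 percentage points) kept its direction but ran from 0.0343 to 0.635 with 1 mouse left out, and was 0.295 without the rRNA genes and 0.462 without the 20 most abundant nuclear genes. The difference in rRNA share of mitochondrial counts kept its direction, and the rRNA calls held, under the alternatives run. Leaving the rRNA genes out was not run for the composition, since it removes the quantity. The number of mitochondrial calls (6) was 2 with the mitochondrial counts as library size, 3 with GC and length offsets, and 3 to 10 when 1 mouse was left out. mRNA calls (3) were 0, 1 and 1 to 7 in the same order and 5 with no filter on low counts, and the tRNA call (1) was 0 with mitochondrial library size, with the offsets and with the offsets and the block, and 0 to 1 with 1 mouse left out. Calls over all genes (1965 of 14046 tested) ranged from 1053 to 2864 with 1 mouse left out. They were 2128 with library totals, 2324 of 24912 tested without a filter, and 1912 with DESeq2. With the offsets they were 2493, and with the offsets and the block 2422. Calls among genes of mtDNA expression (3) were 1 with library totals, 7 without a filter, 6 with the offsets, 7 with the offsets and the block, and 1 to 9 with 1 mouse left out. Synthetase calls (0) were 1 without a filter, with the offsets and with the offsets and the block, and 0 to 1 with 1 mouse left out. Nuclear respiratory chain calls (25) were 50 without a filter, 41 with the offsets and the block, 45 with DESeq2, and 13 to 65 with 1 mouse left out.

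Directions turned below 0 with GC and length offsets for mt-Nd1 (-0.0677), mt-Nd2 (-0.0091), mt-Co1 (-0.0402), mt-Co3 (-0.0107), mt-Nd4l (-0.0235), mt-Nd4 (-0.0448), mt-Nd5 (-0.0649), mt-Nd6 (-0.14) and mt-Cytb (-0.175); with the offsets and the replicate block for mt-Nd1 (-0.0667), mt-Nd2 (-0.0085), mt-Co1 (-0.0354), mt-Nd4 (-0.0439), mt-Nd5 (-0.0546), mt-Nd6 (-0.136) and mt-Cytb (-0.168, adjusted p = 0.0352); and with mitochondrial library size for mt-Nd4 (-0.0268), mt-Nd5 (-0.0645), mt-Nd6 (-0.0641) and mt-Cytb (-0.095). With 1 mouse left out, values ran from -0.295 to 0.823 for mt-Atp8, from -0.0325 to 0.219 for mt-Nd5 and from -0.0438 to 0.138 for mt-Cytb, the latter pair being below 0 without GalNAc-siNC mouse 2. The difference in mt-rRNA counts per CT010467.1 count (-0.141) ran from -0.431 to 0.414, above 0 without GalNAc-siNC mouse 1, an alternative added after seeing the data. The causes were not tested. The deviations of same-numbered mice from their group means had correlations between -0.0337 and 0.0272, and GalNAc-siNC mouse 1 correlated best with a mouse of another number. The replicate block gave 5 mitochondrial calls, losing mt-Co2 (adjusted p = 0.102) and no other member. For the 21 tRNA genes at 0, this depth allows a share of up to 1.12e-05% of a library. With 3 mice per group, exact tests could not go below p = 0.1.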
